A study of Homo sapiens with 2 samples.

Results

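The caveolin, cavin and flotillin coat genes were followed as a group of 9 genes whose products shape or line small invaginations of the plasma membrane. They were CAV1, CAV2, CAVIN1, CAVIN3, EHD2, PACSIN2, PACSIN3, FLOT1 and FLOT2, chosen by name, with earlier results of these data known. Every probe set annotated to exactly 1 of these genes was taken, which gave 22 probe sets for all 9 genes, of 19775 genes read on the arrays. A probe set is a group of short oligonucleotides on the array that together give 1 intensity for 1 transcript. The cells were AsPC-1, a human pancreatic ductal adenocarcinoma (PDAC) cell line, and gene expression was measured once in cells with control siRNA and once in cells in which the progesterone receptor gene PGR was targeted by siRNA. The labels describe both cultures as grown in DMEM with fetal bovine serum, whereas the study's methods name a different medium for this line. The labels give no time after transfection, while the methods give a time for siRNA transfection in general, without naming the arrays. Each condition is a single array of a single transfected line, so no difference below has a replicate check and no test was possible.

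Caveolae are flask-shaped pits of the plasma membrane that are rich in cholesterol and sphingolipids. Caveolins sit in the inner leaflet as oligomers, cavins form a peripheral coat around them, the ATPase EHD2 holds the neck at the cell surface, and the F-BAR proteins PACSIN2 and PACSIN3 bend the membrane. Flotillins are scaffold proteins that form separate cholesterol-rich microdomains and take part in an uptake route that needs neither clathrin nor caveolin. CAV1 also turns up in studies of macropinocytosis, the uptake route the study asked about, because both depend on cholesterol in the plasma membrane.

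The study lists 2 purchased siRNA duplexes against PGR, which are shown because they are the only difference between the cultures that the design intended. The antisense strands are written 5′ to 3′ with the seed, bases 2 to 8, in capitals, and in each duplex 19 bases pair exactly with the sense strand. The sources used here do not say which duplex went into the cells on the array.
si-PGR-1 antisense: uUGCCUCAaaccaauugcctt
si-PGR-2 antisense: uCUUGGGUaauugugcagctt

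PGR itself, the targeted gene, read 16.1 on the Ctrl-labelled array and 73.3 on the si-PGR-labelled array with its brighter probe set, and 1.53 and 4.80 with the other. All of these intensities lie under the signal floor of 97.9, the median of all values of probe sets with 1 gene symbol. The floor is a chosen cutoff and no detection limit, so these values do not show whether PGR mRNA was detected. The order of these values goes against the labels, but values below the floor cannot check the labels in either direction. The arrays are therefore called the Ctrl-labelled and the si-PGR-labelled array, and each direction below rests on these labels. The authors' intensities have equal trimmed means (500.1 on both arrays) and are in arbitrary units. Differences are given on the scale log2(intensity + 1), si-PGR-labelled minus Ctrl-labelled array. The added 1 shrinks the differences of very dim probe sets, yet large differences were more common at low signal. With no signal filter 16.6% of genes were at least 1.5-fold lower, against 2.31% of genes with both values at or above the floor. A gene was counted when its brightest probe set reached the floor on at least 1 array, as 11614 genes did.

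**Figure D1:**
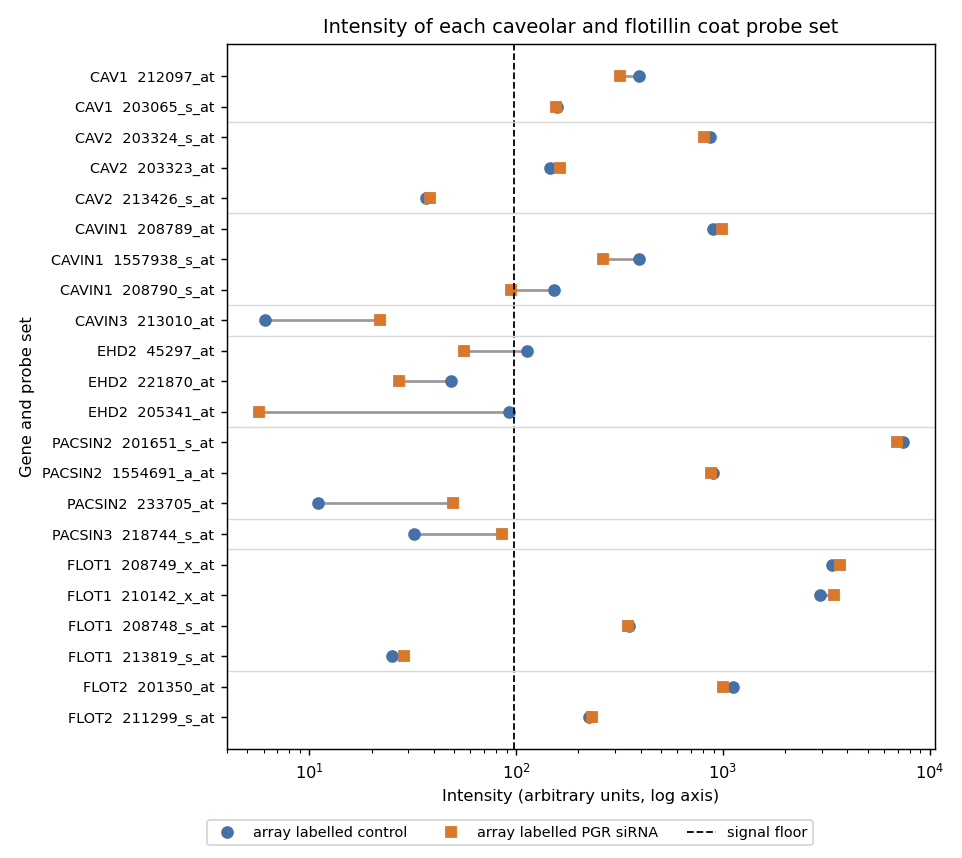
Intensity (arbitrary units, log axis) of the 22 probe sets of the coat genes on the Ctrl-labelled array (blue circles) and the si-PGR-labelled array (orange squares), joined by a grey line, with the signal floor of 97.9 dashed. The pairs of points nearly coincide for the bright probe sets of PACSIN2, FLOT1 and CAV2, and the longest lines belong to probe sets with at least 1 value below the floor.

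By their brightest probe sets most coat genes differed by less than 1.5-fold between the arrays, as did most of all genes counted. Of the 9 genes, 7 reached the floor on at least 1 array, 6 of them on both, and CAVIN3 and PACSIN3 stayed below it on both. EHD2 was the 1 gene at least 1.5-fold lower on the si-PGR-labelled array, where 4.72% of all genes counted were, and 0 were at least 1.5-fold higher, against 3.65% of all genes. EHD2 passed the floor through its control value alone, and a gene that passes through its brighter value only has to differ. The other 6 genes differed by between 0.093 and 0.30 on the log2 scale in size, all below the 0.58 that 1.5-fold amounts to. The median difference of the 7 genes was -0.099, beside 0.021 for all 11614 genes, with 5 members below 0 and 2 above it, while 46.8% of all genes were below 0. In RNA from whole cultures, fewer cells with a transcript and less of it per cell cannot be told apart.

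Counted by probe set, 15 of the 22 reached the floor on at least 1 array, 13 of them on both, and 7 lay below it on both. Of the 15, 2 were at least 1.5-fold lower on the si-PGR-labelled array, 1 of EHD2 and 1 of CAVIN1, where 6.21% of all probe sets counted were. None was at least 1.5-fold higher, against 4.61% of all probe sets. The median of the 15 differences was -0.034, beside 0.0060 for all probe sets counted.

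**Figure D2:**
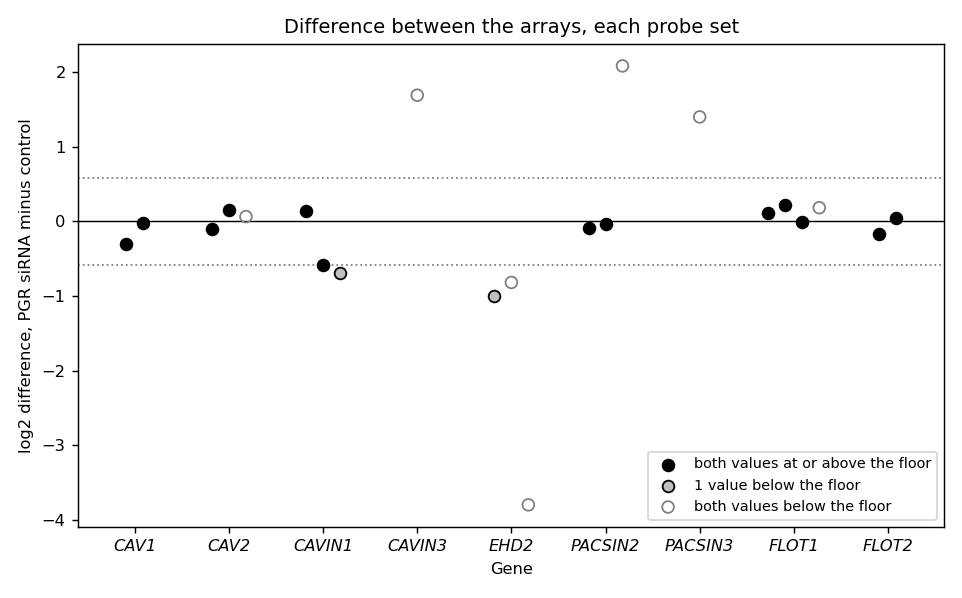
Difference between the arrays (log2, si-PGR-labelled minus Ctrl-labelled array) of each probe set, 1 point per probe set grouped by gene, with dotted lines at 1.5-fold. Black points have both values at or above the floor, grey points 1 value and open points none. The black points lie between -0.58 and 0.22, and the differences past 1.5-fold have at least 1 value below the floor.

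CAV1, the caveolin without which caveolae do not form in most tissues, had the largest difference among the 6 coat genes read on both arrays when each was read by its brightest probe set. By the mean of the probe sets past the floor CAVIN1 was farther from 0, at -0.38 against -0.16 for CAV1. The brighter CAV1 probe set, 212097_at, read 392 on the Ctrl-labelled array and 317 on the si-PGR-labelled array, a difference of -0.30 or 1.23-fold. The other, 203065_s_at, read 158 and 156, a difference of -0.014. Both were lower on the si-PGR-labelled array, the second by an amount that is hardly visible in the plot of intensities. Of the 10840 genes with both values at the floor, 10.6% had a difference as low as that of CAV1 or lower, and the quartiles of these genes were -0.13 and 0.17.

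CAV2, which forms hetero-oligomers with CAV1, gave values on either side of 0. Probe set 203324_s_at read 869 on the Ctrl-labelled array and 812 on the si-PGR-labelled array, a difference of -0.099. Probe set 203323_at read 146 and 162, a difference of 0.15, and 213426_s_at read 36.7 and 38.4, both below the floor. The 2 readable probe sets thus disagree on which array is higher, by less than 1.5-fold in either case. CAV1 and CAV2 are neighbours on chromosome 7 in the RefSeq annotation of GRCh38.p14.

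The promoter sequences of the coat genes were searched because PGR is a transcription factor. Its response element is a palindrome of the hexamer AGAACA, written out as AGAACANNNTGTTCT, and receptors of its class can also bind a single hexamer. Windows from 250 bases before to 50 after a start were available from RefSeq (GRCh38.p14) for 6 of the 9 genes, 14 windows in all, and CAVIN1, CAVIN3 and PACSIN3 had none. The full palindrome was in none of the 14 windows and in 1 of 35116 windows of all genes. The hexamer, on either strand, was in at least 1 window of 2 of the 6 genes, CAV1 and PACSIN2, and of 17.5% of all genes. It stood in 5 of the 14 windows and in 14.8% of all windows, but overlapping windows of a gene share these letters, so the 5 amount to 1 match in each gene, shown here with the hexamer in capitals.
CAV1, chr7:116524889-116524918, plus strand: ccaaccgcgagcAGAACAaacctttggcgg
PACSIN2, chr22:42960084-42960113, minus strand: tagtatgaatttTGTTCTcagacctcttct
The CAV1 match lies 108 bases before the start of the first of its windows and the PACSIN2 match 202 bases before the start of one of its 3 overlapping windows. A match is a description of the letters and says nothing of binding, and CAV2, EHD2, FLOT1 and FLOT2 had no such letters in their windows.

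CAVIN1, also called PTRF, is the cavin that a caveolar coat requires, and its probe sets disagreed most of all the readable coat genes. The brightest, 208789_at, read 899 on the Ctrl-labelled array and 992 on the si-PGR-labelled array, a difference of 0.14. Probe set 1557938_s_at read 392 and 261, a difference of -0.581, just short of the 0.585 that 1.5-fold amounts to. Probe set 208790_s_at read 153 and 94.4, with the second value under the floor, and was at least 1.56-fold lower when that value was raised to the floor. The brightest probe set was thus higher and the other 2 lower on the si-PGR-labelled array.

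The mean of the 3 CAVIN1 differences was -0.38, of opposite sign to the brightest probe set. The distance between the 2 CAVIN1 probe sets with both values at the floor was 0.72, where the median over 5203 genes with at least 2 such probe sets was 0.30 and 10.8% of those genes had a distance as wide. Over all 3 probe sets the distance was 0.83, and 22.0% of 2531 genes with at least 3 probe sets past the floor had one as wide. Probe sets of a gene can read different stretches or ends of its transcripts, and which stretch each reads was not analysed here. CAVIN3, also called PRKCDBP, a cavin that binds protein kinase C delta, read 6.08 and 21.9 with its only probe set, both below the floor, so its difference of 1.69 has no usable size.

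EHD2, which stabilises caveolae at the cell surface, had the lowest values on the si-PGR-labelled array relative to the control, in signal that was near or below the floor throughout. Probe set 45297_at read 113 on the Ctrl-labelled array and 55.9 on the si-PGR-labelled array, a difference of -1.0. Probe set 205341_at read 92.2 and 5.70 and probe set 221870_at read 48.6 and 27.1, differences of -3.80 and -0.82 between values all below the floor. All 3 probe sets were lower on the si-PGR-labelled array, and 5 of their 6 values lay below the floor. Setting the dimmer value to the floor, EHD2 was at least 1.15-fold lower. Of the 774 genes that reached the floor on exactly 1 array, 38.5% were at least 1.5-fold lower.

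EHD2 is known to be abundant in endothelial cells and adipocytes, so markers of such cells were read beside it. Of 6 endothelial markers, 1 reached the floor on the Ctrl-labelled array and 0 on the si-PGR-labelled array. That marker was PECAM1, at 163 and 93.2. The summed intensity of the list was 291 and 160, but the other markers in it lay below the floor on both arrays. Of 6 adipocyte markers, CIDEC reached the floor, at 188 and 185. The list summed to 373 and 313, where the markers besides CIDEC were again below the floor on both arrays. No marker was listed at 0, and the defining markers VWF, CDH5, ADIPOQ and PLIN1 did not reach the floor. Both cultures were of the AsPC-1 line, to which the design adds no such cells, and the source of the EHD2 signal was not tested.

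PACSIN2, also called syndapin II, which sculpts the membrane of caveolae and binds dynamin, lay close together on both arrays. Its brightest probe set, 201651_s_at, read 7396 on the Ctrl-labelled array and 6936 on the si-PGR-labelled array, a difference of -0.093. Probe set 1554691_a_at read 897 and 876, a difference of -0.034. These readings had the same sign and the smallest distance of any coat gene with more than 1 readable probe set. The last, 233705_at, read 11.0 and 49.7, both below the floor, and its difference of 2.08 alone turns the mean of all PACSIN2 probe sets to 0.65. PACSIN3, the paralog best known from muscle caveolae, read 31.9 and 85.8 with its only probe set, both below the floor.

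FLOT1 and FLOT2, which assemble into the same flotillin oligomers, had values within 1.17-fold on every readable probe set. FLOT1 read 3374 on the Ctrl-labelled array and 3667 on the si-PGR-labelled array with 208749_x_at, and 2945 and 3435 with 210142_x_at, differences of 0.12 and 0.22. The third readable FLOT1 probe set, 208748_s_at, read 350 and 348, a difference of -0.010. The letter x in a probe set name marks probes that also match other sequences, and it stands in the names of the 2 bright FLOT1 probe sets, the readable ones that were higher on the si-PGR-labelled array. The brightest probe sets of EHD1, STOM, CD44, KRT8, COL1A1 and DCN, given below, carry this letter too.

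FLOT2 read 1123 on the Ctrl-labelled array and 1001 on the si-PGR-labelled array with 201350_at, a difference of -0.17, and 224 and 232 with 211299_s_at, a difference of 0.045. By their brightest probe sets the flotillins thus stood on opposite sides of 0, FLOT1 above and FLOT2 below. Each has a reading of the other sign too, and the remaining FLOT1 probe set, 213819_s_at, was below the floor at 25.1 and 28.6.

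**Figure D3:**
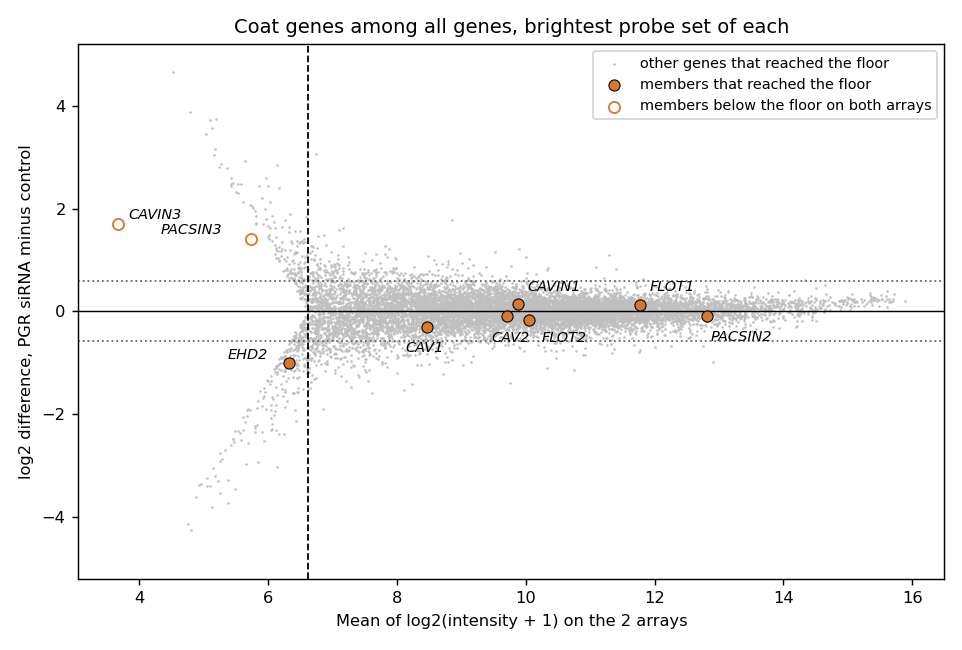
Difference between the arrays (log2) against the mean of log2(intensity + 1) for the brightest probe set of each gene, with 11614 genes that reached the floor as points, the floor as a dashed line and 1.5-fold as dotted lines. The 6 coat genes to the right of the floor sit inside the dotted lines, EHD2 sits left of it at -1.0, and CAVIN3 and PACSIN3 (open) are below the floor on both arrays.

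The probe sets of a gene gave the only check on the size of these differences that the arrays allow. Differences of probe sets of the same gene, both values at the floor, had a pooled SD of 0.26 over 5203 genes, which measures disagreement within the arrays and no spread between cultures. Of the brightest readings of the 6 coat genes, only that of CAV1 was larger in size. All 6 had at least 2 such probe sets, and in 4 of them, CAV2, CAVIN1, FLOT1 and FLOT2, the signs differed, where 54.9% of the 5203 genes had probe sets of both signs. CAV1 and PACSIN2 were the 2 whose readable probe sets had 1 sign, lower on the si-PGR-labelled array.

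The closest paralogs of the coat proteins were mostly below the floor. Of CAV3, CAVIN2, CAVIN4, EHD1, EHD3, EHD4 and PACSIN1, 2 of 7 reached the floor. EHD4, an ATPase of early endosomes, read 2273 on the Ctrl-labelled array and 1977 on the si-PGR-labelled array, a difference of -0.20 with other probe sets up to 0.73. EHD1, which acts in endosomal recycling, was at -0.011. CAV3, the muscle caveolin, read 69.1 and 59.3 and CAVIN2 22.9 and 46.8, all below the floor. The coat genes readable in these cells were therefore CAV1, CAV2, CAVIN1, PACSIN2 and the flotillins, with EHD2 at the margin.

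Flotillins share the SPFH domain with stomatins, erlins and prohibitins, and 7 of 8 such relatives reached the floor on both arrays with a median difference of 0.11. STOM, the red cell membrane protein stomatin, was lowest at -0.13, with a second readable probe set at -0.67, and ERLIN1, an endoplasmic reticulum protein of cholesterol-rich domains, highest at 0.18. By brightest probe set 0 genes of this list passed 1.5-fold up and 0 passed it down, against 3.65% and 4.72% of all genes counted. STOML1, at -0.0079, had a second readable probe set at 2.63. On the same reading FLOT1 was at 0.12 and FLOT2 at -0.17.

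Kinases, GTPases and scaffolds that act on caveolae or flotillins had a median of -0.0055 over 13 genes that reached the floor, of 16 listed and 14 with a probe set. The lowest was YES1, a Src family kinase, at -0.32, and the highest was SRC, the kinase that phosphorylates CAV1, at 0.36. DNM2, the dynamin that cuts vesicles from the membrane, was at -0.24 with another probe set at 0.80, and FYN, another Src family kinase, at -0.19 with its probe sets past the floor reaching down to -1.32. By brightest probe set 0 genes of this list passed 1.5-fold in either direction, against 3.65% of all genes counted upward and 4.72% downward.

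Residents and cargo of cholesterol-rich domains had a median of -0.18 over 13 of 18 genes that reached the floor, 10 of them below 0. Among all genes counted the median was 0.021 and 46.8% were below 0, and the difference of this list from them was not tested. CD44, a hyaluronan receptor, was lowest at -0.48, with 7 other readable probe sets reaching up to 0.071. INSR, the insulin receptor, was highest at 0.41 with probe sets from -0.61 to 0.43. PAG1, an adaptor that holds the kinase CSK in rafts, was at -0.31 and its readable probe sets ran from -0.54 to -0.20. By brightest probe set 0 genes of this list passed 1.5-fold in either direction, so CD44 and PAG1 are given as values. Less bright readable probe sets did pass it, for INSR at -0.61 and for TGFBR1, a receptor of TGF-beta, at 0.66. Of all genes counted 3.65% passed it upward and 4.72% downward, so 0 in a list this short is near those shares.

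**Figure D4:**
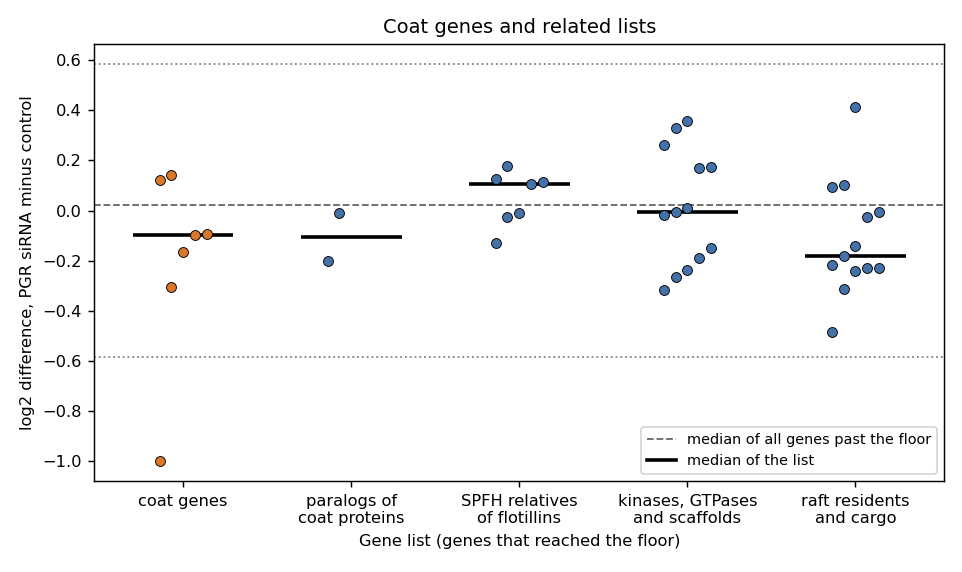
Difference between the arrays (log2) of each gene that reached the floor, 1 point per gene by its brightest probe set, for the coat genes (orange) and 4 related lists (blue), with the list median as a bar, the median of all genes at 0.021 dashed and 1.5-fold dotted. EHD2 at -1.0 is the only point outside the dotted lines, and it has a value below the floor.

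The cells read as epithelial on both arrays. EPCAM was at 20351 on the Ctrl-labelled array and 20304 on the si-PGR-labelled array, and KRT8 at 21416 and 21156. Of 8 epithelial and pancreatic tumour markers 7 reached the floor on the Ctrl-labelled array and 6 on the other, with CEACAM5 below it on both. Of 6 fibroblast markers, 2 and 1 reached it, and of 6 leukocyte markers, 4 with a probe set, 1 and 0 did. COL1A1 was at 299 on both arrays by its brightest probe set, and its other readable probe set had a difference of -0.25. Besides PECAM1, the markers past the floor and at least 1.5-fold lower on the si-PGR-labelled array were CEACAM6 and the fibroblast proteoglycan DCN. CEACAM6 read 120 and 79.3 and DCN 115 and 60.3, each below the floor on the si-PGR-labelled array. PECAM1, CEACAM6 and DCN thus passed the floor on the Ctrl-labelled array only. A drop of this size was seen in 38.5% of the 774 genes past it on exactly 1 array, against 4.72% of all genes counted. Once low values were raised to the floor, PECAM1 differed by 1.66-fold, CEACAM6 by 1.22-fold and DCN by 1.17-fold, so only PECAM1 stayed past 1.5-fold.

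**Figure D5:**
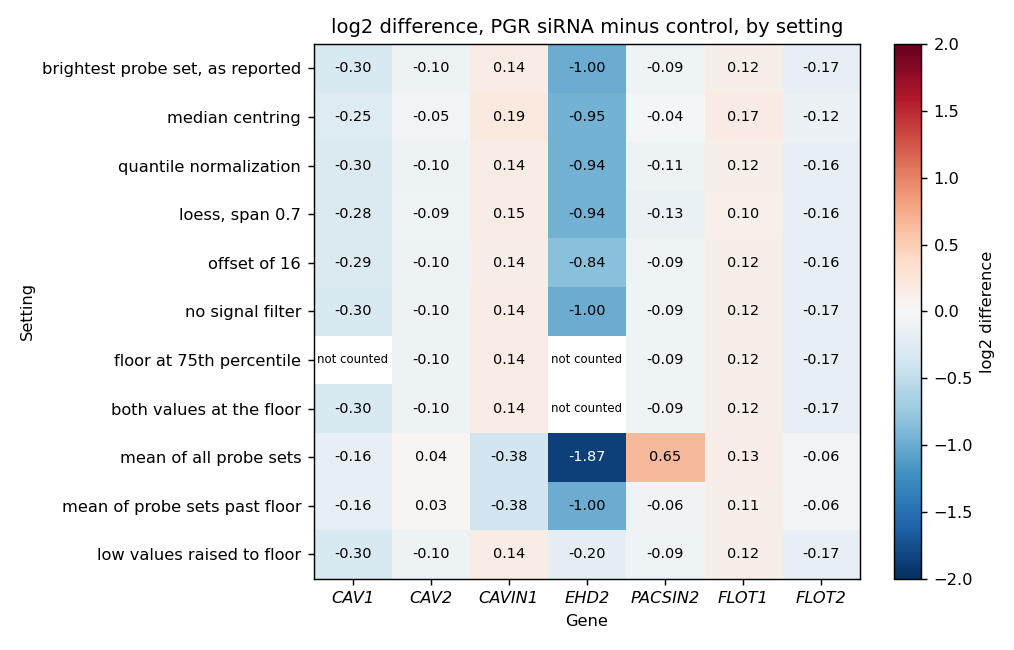
Difference between the arrays (log2, colour and printed value) of the 7 coat genes that reached the floor, under each way of processing the intensities. The rows that average probe sets change CAVIN1 from 0.14 to -0.38 and turn CAV2 from -0.099 to 0.039 or 0.026. Averaging all probe sets changes EHD2 to -1.87 and PACSIN2 to 0.65, while CAV1 stays below 0 in each row where it is counted.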

How the data were processed

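Per probe set and array the authors deposited a single intensity on a linear scale. The summary algorithm, background correction and scaling method are not given in the sources used here, and equal trimmed means (2% of values removed at each end) show scaling to a common level. Both columns were mapped by their labels. Detection calls were not used here. Of 54675 probe sets, 41097 had 1 gene symbol in the platform annotation, 1801 had several and 11777 none, and only the first kind was kept. For 41043 of these the symbol was brought up to date with RefSeq by gene identifier. The probe set with the highest mean of log2(intensity + 1) stood for its gene. With 1 array per condition no test, standard error or p-value was computed, and 1.5-fold served as a rule of size. The number of arrays limits the precision.

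The members and gene lists were chosen with earlier results of these data known. The genes named are every member, PGR, and in each list the genes past 1.5-fold, otherwise the lowest and highest, together with others singled out after their values were seen. Alternatives were median centring, quantile normalization, loess (span 0.7), an offset of 16, no filter, a floor at the 75th percentile, a floor on both values, and means over probe sets. Raising low values to the floor was added after seeing the data. The log2 difference was also computed on simulated intensities, where its recovery is fixed by construction. Neither the choice of the brightest probe set nor the floor was tested in that way. The software was matplotlib 3.10.9, statsmodels 0.14.6, scipy 1.17.1, pandas 2.3.3 and numpy 2.4.6 under Python 3.11.15.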

Additional observations from a re-analysis of the deposited data

How the results depend on the processing

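The median difference of the coat genes ran from -0.13 with loess to -0.048 with median centring and stayed below 0 in all settings, while the median of all genes moved by 0.051 at most, to 0.072 with median centring. The count of coat genes at least 1.5-fold lower, 1 as reported, was 0 with the floor at the 75th percentile and 0 with the floor on both values, since EHD2 then drops out. It was also 0 with low values raised to the floor, where EHD2 stays counted with a difference of -0.20. The count at least 1.5-fold higher, 0 as reported, was 2 with no signal filter (CAVIN3 and PACSIN3, below the floor) and 1 with the mean of all probe sets (PACSIN2). By probe set, 2 lower became 4 with no filter, 0 with either stricter floor and 1 with low values raised, and 0 higher became 3 with no filter. The background moved as well, with 16.6% of genes at least 1.5-fold lower with no filter and 8.33% when all probe sets were averaged. Settings that only change which genes are counted leave the value of each gene as it was. Raising low values to the floor alters only values below it, and median centring shifts every gene by the same amount. Many of the 67 values of single coat genes under the alternatives were thus fixed in advance. With these included, 62 moved by less than the SD of 0.26 between probe sets of a gene. The other 5 were CAVIN1 at -0.38 with either mean of probe sets, EHD2 at -1.87 and PACSIN2 at 0.65 with the mean of all, and EHD2 at -0.20 with low values raised. FLOT1 ran from 0.099 to 0.17 and CAV1 from -0.30 to -0.16. CAV2 changed sign, from -0.099 as reported to 0.039 with the mean of all probe sets and 0.026 with the mean of those past the floor. The split of 5 coat genes below 0 and 2 above it became 4 and 3 with the mean of all probe sets. No paired analysis was possible because each condition has 1 array. What limits these values is signal near or below the floor for CAVIN3, EHD2 and PACSIN3, and the single array per condition for all.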
